A study of Oryctolagus cuniculus with 134 samples.

Results

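The genes described here are those of transforming growth factor beta (TGF-beta) and bone morphogenetic protein (BMP) signaling, measured by RNA sequencing in the aorta and the 4 heart valves of rabbits. They were chosen by symbol alone, as the genes whose symbol begins with ACVR or INHB, with TGFB or BMP and then a digit or R, or with SMAD, GDF or LTBP and then a digit, leaving out GDF15. Of the 29587 genes in the count tables, 14716 of which carry a symbol, 46 met this rule. The libraries came from 27 male New Zealand White rabbits that entered a protocol of 16 weeks at 12 weeks of age. Controls (Ctrl, 7 rabbits) ate standard chow. CHT animals (6 rabbits) ate chow with 0.3% cholesterol, Lard animals (7 rabbits) chow with 5% lard, and the last group (IR/CHT, 7 rabbits) the cholesterol diet with X-ray irradiation of the heart, 24 Gy given as 3 fractions of 8 Gy, once 8 weeks of the diet had passed. Vitamin D2 was given at 25000 U per day for 15 days to all groups except Ctrl, so diet and vitamin D2 cannot be told apart in a comparison with Ctrl. Irradiation was measured here on the cholesterol diet alone, by comparing IR/CHT with CHT. Every rabbit gave an aorta ring (Ao) and an aortic (AoV), mitral (MV), pulmonary (PV) and tricuspid (TV) valve, except that 1 Ctrl mitral valve is absent, which leaves 134 libraries in groups of 6 or 7.

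The TGF-beta family is a set of secreted dimers that bind a pair of receptor types at the cell surface. A type II receptor phosphorylates a type I receptor, which in turn phosphorylates a receptor-regulated SMAD. TGF-beta and activin signals pass through SMAD2 and SMAD3, and BMP signals through SMAD1, SMAD5 and SMAD9, and each joins SMAD4 to enter the nucleus. SMAD7 is an inhibitory SMAD whose transcription the pathway itself drives. TGF-beta leaves the cell bound to latent TGF-beta binding proteins (LTBPs), which hold it in the extracellular matrix until it is freed. In valves and arteries the pathway is known for its part in valve formation, in matrix production by interstitial and smooth muscle cells, and in ectopic bone formation.

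By role, the 46 genes comprised the TGF-beta ligands TGFB2 and TGFB3, the BMP ligands BMP2, BMP3, BMP4, BMP5, BMP6, BMP10 and BMP15, the growth and differentiation factors GDF2, GDF3, GDF5, GDF6, GDF7, GDF9, GDF10 and GDF11, and the inhibin and activin subunits INHBA, INHBB, INHBC and INHBE. The receptors were the type I receptors ACVRL1, ACVR1, ACVR1B, ACVR1C, BMPR1A, BMPR1B and TGFBR1, the type II receptors TGFBR2, BMPR2 and ACVR2A, and the co-receptor TGFBR3 (betaglycan) with its relative TGFBR3L. Among the transducers were SMAD1, SMAD2, SMAD3, SMAD4, SMAD5, SMAD7 and SMAD9. LTBP1 and LTBP2 completed the matrix-binding proteins. The symbol rule also took in BMP1, a metalloprotease that trims procollagen, BMP2K, a kinase, TGFBRAP1, an adaptor protein, and GDF5OS, an antisense transcript. No gene named TGFB1, BMP7, BMP8B, SMAD6, ACVR2B, LTBP3, LTBP4, GDF1 or TGFB1I1 was found by symbol in the count tables, so these were not analysed here. In all, 38 genes had enough counts to be tested in at least 1 tissue and 35 in all 5. BMP10, INHBB, GDF3, GDF5OS, INHBC, INHBE, BMP15 and GDF2 did not pass in any tissue's comparison of treatments.

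Values are read pairs per gene, given in CPM, the counts of a gene per 1000000 counts of the library, on library sizes scaled by the trimmed mean of M values (TMM). Between 13564979 and 50577676 read pairs (median 18235577) were assigned to genes in a library, so that 1 CPM stood for 13.3 to 51.0 read pairs. Genes were not compared with each other in level, since CPM is not divided by gene length. A treatment difference was called at an adjusted p below 0.05 (edgeR quasi-likelihood test, Benjamini-Hochberg over all genes tested in the tissue) together with a fold change over 1.5. Some libraries stood apart from their groups. Ctrl tricuspid valve library L168 had 2607 CPM of LTBP2, where the other 6 had 43.4 to 114.7. It had 28.1 CPM of SMAD5, where they had 96.7 to 111.6. Its heart muscle markers (11 of 16 found) summed to 649.6 CPM, where the others had 9281.3 to 45351.5 CPM. Its endothelial markers summed to 399.5 CPM, where the others had 1006.6 to 1504 CPM. Both sums lay within the ranges of Ctrl mitral valve (181.7 to 2376.6 CPM and 87.5 to 1128.5 CPM). The rabbit of L168 is the 1 without a mitral valve library, and the tissue of L168 was not tested. Smooth muscle markers (8 of 10 found) summed to 82420.2 to 114885 CPM (median 104166) in Ctrl aorta and 1136 to 1789.7 CPM (median 1238) in Ctrl aortic valve, but IR/CHT pulmonary valve library L176 had 21683.9 CPM of them, where the other 6 had 995.4 to 2684.2 CPM. Endothelial markers (8 of 10 found) summed to 100.3 CPM in IR/CHT pulmonary valve library L275, where the others had 1116.6 to 1560.7 CPM, and to 59.3 CPM in IR/CHT aortic valve library L178, where they had 124.1 to 691.2 CPM. Comparisons of Ctrl tissues, responses compared between tissues, and the pulmonary and tricuspid valve are described with and without these libraries where a member count moved. The gene lists of later paragraphs were not run without them. Macrophage markers (13 of 14 found) had a median sum of 162 CPM in Ctrl, 427 in Lard, 2179 in CHT and 3329.5 CPM in IR/CHT aorta, while the smooth muscle sum was 55709 CPM in CHT and 31229 CPM in IR/CHT. In these whole-tissue samples fewer cells of a type and less RNA per cell cannot be told apart.

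Among Ctrl rabbits, the aorta and the aortic valve expressed different members of the BMP branch. SMAD9, a transducer of BMP signals, was present at 108 to 148 CPM (median 117) in aorta and at 13.0 to 19.1 CPM (median 16.0) in aortic valve (log2 difference -2.93, SE 0.14, adjusted p = 8.81e-18). BMPR1A, a type I BMP receptor, stood at 113 to 154.2 CPM (median 131) in aorta and 34.6 to 66.7 CPM (median 53.3) in aortic valve (log2 difference -1.36, SE 0.11, adjusted p = 5.81e-12). Its relative BMPR1B stood at 5.93 to 15.9 CPM and 0.298 to 1.48 CPM (log2 difference -3.92, SE 0.33, adjusted p = 1.58e-11). For these receptors and SMAD9 the aorta was higher in every Ctrl library. The ligands BMP5 and BMP6 ran the other way. BMP5 had 0.571 to 1.68 CPM in aorta and 27.8 to 78.5 CPM in aortic valve (log2 difference 5.67, SE 0.28, adjusted p = 5.44e-17), and BMP6 had 0.127 to 1.38 CPM and 31.7 to 72.4 CPM (log2 difference 6.39, SE 0.36, adjusted p = 1.28e-15). LTBP1, which tethers latent TGF-beta to the matrix, was lower in the valve, at 234.3 to 537 CPM against 990.3 to 1076 CPM (log2 difference -1.50, SE 0.14, adjusted p = 1.2e-10). Of 38 members tested between Ctrl tissues, 15 were higher and 10 lower in aortic valve than in aorta, where 29.2% and 20.5% of all genes were (49.6% in either direction). Without L168, which entered the same fit, 18 were higher and 8 lower (33.4% and 18.2% of all genes).

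Across the valves of Ctrl rabbits BMP5 and BMP6 stood in opposite orders. BMP5 had medians of 133 CPM in tricuspid, 100.2 in mitral, 67.6 in pulmonary, 44.2 in aortic valve and 0.761 CPM in aorta. BMP6 had medians of 43.7 CPM in aortic, 34.4 in pulmonary, 19.4 in mitral, 12.6 in tricuspid valve and 0.379 CPM in aorta. The semilunar valves (aortic and pulmonary) were thus above the atrioventricular ones in BMP6 and below them in BMP5, and within each of these pairs of valves neither gene was called. Without L168, however, BMP6 was called between mitral and tricuspid valve (log2 difference 0.73, adjusted p = 0.0336). Between aortic and mitral valve BMP6 differed (log2 difference 1.298, SE 0.29, adjusted p = 0.011), as did BMP5 (log2 difference -0.92, SE 0.23, adjusted p = 0.0224), GDF7 (log2 difference 2.51, SE 0.61, adjusted p = 0.019) and LTBP1 (log2 difference -0.64, SE 0.14, adjusted p = 0.00951), which were the 4 of 38 members called, 2 in each direction, against 2.75% of all genes (1.37% and 1.39%). With the rabbit as a block SMAD1 and SMAD7 were called too (3.58% of all genes), and without L168 SMAD7 and LTBP2 (15.8% of all genes). On the right side, pulmonary valve exceeded tricuspid valve in BMP3 (log2 difference 1.61), BMP6 (1.41), BMP2K (0.80) and SMAD9 (0.60) and was below it in TGFBR3 (-0.83) and BMP5 (-1.09). In that comparison 5 members were higher and 6 lower (1.8% and 8.91% of all genes, 10.7% together) and 7 were called without L168 (8.72% of all genes), where LTBP2 went from a log2 difference of -2.26 to 0.35 (adjusted p = 0.753). BMP1, BMPR1B, ACVRL1 and ACVR1B were no longer called without L168, and LTBP2, ACVRL1 and ACVR1B were not called with the rabbit as a block, under which GDF7 was.

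Mitral and tricuspid valve differed in 3 members (5.33% of all genes, 1.39% higher and 3.95% lower in mitral valve), the ligand TGFB3 (log2 difference 0.78, SE 0.16, adjusted p = 0.00183), BMP3 (log2 difference 0.84, SE 0.22, adjusted p = 0.0191) and INHBA, the activin A subunit (log2 difference -1.02, SE 0.31, adjusted p = 0.0424). The count was 14 without L168, where 25.3% of all genes were called, and 6 with the rabbit as a block (10.8% of all genes), which added TGFBRAP1, SMAD3 and LTBP2. Aortic against pulmonary valve gave 11 higher and 8 lower members (29.9% and 18.4% of all genes, 48.2% together). Type I receptor ACVR1 was lower in aortic valve, at 44.4 to 82.7 CPM against 116 to 159.5 CPM (log2 difference -1.01, SE 0.14, adjusted p = 2.28e-05). Higher in aortic valve were BMP1 (log2 difference 3.28), ACVR1B (2.48), SMAD3 (2.05), SMAD7 (2.44) and TGFBRAP1 (1.09). LTBP2 ranged over 539 to 3042 CPM among the aortic valves and 65.3 to 121 CPM among the pulmonary valves. Several of these genes also varied together between libraries of one group, as described in the last paragraphs.

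The map of log2 fold changes shows where the treatments moved the family. Changes from Ctrl were called in aorta and aortic valve under CHT and IR/CHT and in mitral valve under IR/CHT, and 32 of the 38 genes tested (84.2%) were called in at least 1 of the 20 comparisons of treatments, as were 56.6% of all genes tested. TGFBR2, BMPR2, SMAD2, TGFBRAP1, GDF9 and LTBP2 were tested and never called. The comparisons with Ctrl share the Ctrl libraries of their tissue. Lard gave no called member in any tissue by edgeR. Unadjusted p was below 0.05 for 7 of 36 members in aorta and 4 of 38 in aortic valve (15.8% and 11% of all genes at that threshold), and DESeq2 called 3 in aorta (BMP6, BMP5 and GDF7) and none in aortic valve, while the share of all genes called under Lard was 2.61% in aorta and 0.234% in aortic valve.

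**Figure D1:**
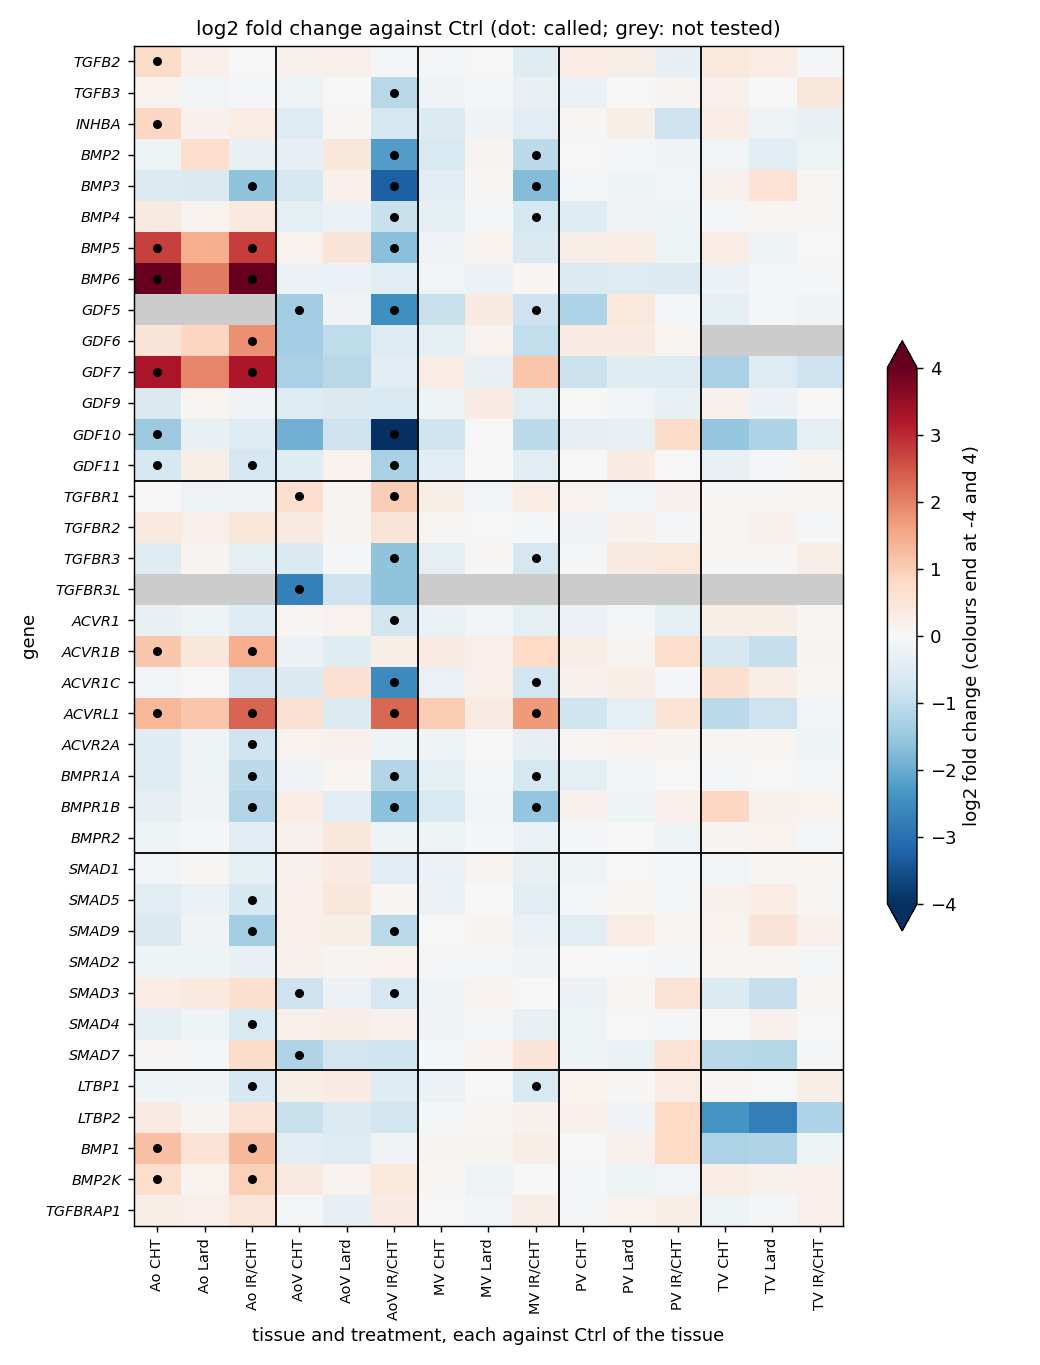
Log2 fold change from Ctrl of the 38 tested genes (rows, ordered by role) in each tissue and treatment (columns), with colours that end at -4 and 4, a dot where the change was called and grey where the gene was not tested. BMP6, BMP5 and GDF7 are raised in the aorta columns, and TGFBR3, BMP3, BMP2 and GDF10 are lowered in the IR/CHT column of the aortic valve.

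In CHT aorta 3 BMP-family ligands with medians under 1 CPM in Ctrl rose. BMP6 (ENSOCUG00000003431) was measured at 1.54 to 21.2 CPM (median 13.7) in CHT and 0.127 to 1.38 CPM (median 0.379) in Ctrl, a 24.5-fold rise (log2 fold change 4.61, SE 0.63, adjusted p = 3.05e-06). BMP5 (ENSOCUG00000025226) had 1.79 to 9.27 CPM (median 7.26) and 0.571 to 1.68 CPM (median 0.761) (log2 fold change 2.74, SE 0.44, adjusted p = 3.07e-05). The groups did not overlap for either ligand. GDF7, a BMP-like ligand, had 0.986 to 12.6 CPM (median 5.15) and 0.0632 to 1.38 CPM (median 0.497) (log2 fold change 3.26, SE 0.65, adjusted p = 0.000399), and the lowest CHT library lay within the Ctrl range. Of 36 members tested, 9 rose and 2 fell, a share of 30.6% against 19.4% of all genes (14.2% up and 5.18% down). Under IR/CHT the same 3 ligands stood at 4.68 to 42.7 CPM (median 17.4) for BMP6, 2.23 to 10.2 CPM (median 6.07) for BMP5 and 1.92 to 8.16 CPM (median 5.22) for GDF7, each above its highest Ctrl library (log2 fold changes 5.16, 2.77 and 3.24, adjusted p = 2.98e-07, 1.04e-05 and 0.000145). In Lard aorta BMP6 ranged over 0.923 to 6.95 CPM, BMP5 over 1.28 to 7.25 CPM and GDF7 over 0.560 to 5.92 CPM, without passing the test (adjusted p = 0.0635, 0.0676 and 0.0956).

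Other ligands of the aorta changed less. TGFB2 had 39.5 to 91.8 CPM (median 47.5) in CHT and 26.9 to 47.9 CPM (median 32.8) in Ctrl (log2 fold change 0.75, SE 0.21, adjusted p = 0.00821), and INHBA had 23.8 to 65.0 CPM (median 54.0) and 20.5 to 42.3 CPM (median 26.4) (log2 fold change 0.83, SE 0.23, adjusted p = 0.00858). Both rises came with overlapping groups, that of TGFB2 fell short of the fold threshold without CHT library L560 (log2 fold change 0.56), and neither was called under IR/CHT, where TGFB2 had a log2 fold change of -0.02 and INHBA of 0.30. GDF10, also called BMP3B, had 2.71 to 7.90 CPM (median 3.85) and 3.67 to 24.5 CPM (median 10.4) (log2 fold change -1.44, SE 0.43, adjusted p = 0.014). Its fall was joined by that of GDF11, from 6.60 ± 1.86 CPM (SD, n = 7) to 4.13 ± 1.35 CPM (n = 6, log2 fold change -0.65, SE 0.24, adjusted p = 0.0392), a call that was lost when any of 8 libraries was left out. Under IR/CHT the ligand BMP3 fell (4.17 to 28.8 CPM against 24.1 to 57.9 CPM, log2 fold change -1.61, SE 0.37, adjusted p = 0.000678) as did GDF11 (log2 fold change -0.66, lost without Ctrl library L571), and GDF6 rose from 0.252 ± 0.252 to 0.864 ± 0.452 CPM (log2 fold change 1.84), with 3 counts or fewer in 4 of 7 Ctrl libraries. TGFB3 had 80.4 ± 15.9 CPM in Ctrl, 86.8 ± 23.1 in CHT and 74.7 ± 8.88 CPM in IR/CHT aorta and was called in neither comparison.

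Under IR/CHT the transducers SMAD9, SMAD5 and SMAD4 and the receptors BMPR1A, BMPR1B and ACVR2A fell in aorta. SMAD9 stood at 15.4 to 73.1 CPM (median 42.8) in IR/CHT and 108 to 148 CPM (median 117) in Ctrl (log2 fold change -1.37, SE 0.21, adjusted p = 5.71e-06). BMPR1A had 31.0 to 102 CPM (median 57.6) and 113 to 154.2 CPM (median 131) (log2 fold change -1.04, SE 0.17, adjusted p = 1.42e-05). SMAD5 had 55.7 to 88.1 CPM against 98.8 to 162 CPM (log2 fold change -0.65, SE 0.12, adjusted p = 7.52e-05), and SMAD4, the partner shared by both branches, 64.3 to 82.5 CPM against 93.7 to 147 CPM (log2 fold change -0.62, SE 0.12, adjusted p = 8.55e-05). In each of these 4 genes every IR/CHT library lay below every Ctrl library. SMAD5 and SMAD4 lay close to the fold threshold, and without Ctrl library L551 their log2 fold changes were -0.55 and -0.57, short of a call. SMAD4 was also lost without Ctrl library L553. The type II receptor ACVR2A (log2 fold change -0.79, SE 0.14, adjusted p = 3.36e-05) and BMPR1B (log2 fold change -1.17, SE 0.31, adjusted p = 0.00264) also fell. LTBP1 had 340.1 to 887 CPM (median 591) against 990.3 to 1076 CPM (median 1016) (log2 fold change -0.68, SE 0.13, adjusted p = 0.000144), again without overlap, and was not called without IR/CHT library L566 (-0.58). The same genes were not called under CHT, where log2 fold changes were -0.57 for SMAD9, -0.48 for BMPR1A, -0.41 for SMAD5, -0.38 for SMAD4 and -0.19 for LTBP1.

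Of the receptors, ACVRL1, a type I receptor known from endothelium, and ACVR1B, an activin receptor, rose. ACVRL1 had 3.57 ± 1.76 CPM in Ctrl, 8.85 ± 4.29 in CHT (log2 fold change 1.34, SE 0.44, adjusted p = 0.023) and 16.9 ± 9.20 CPM in IR/CHT (log2 fold change 2.32, SE 0.44, adjusted p = 9.46e-05). Its call in CHT was lost without CHT library L559 or L574. The endothelial marker sum moved with it, with medians of 186.6 CPM in Ctrl, 575.1 in CHT and 766 CPM in IR/CHT, and its part in the result was not tested. ACVR1B had log2 fold changes of 1.09 in CHT (adjusted p = 0.0279, lost when any of 7 libraries was left out) and 1.45 in IR/CHT. BMP1, the procollagen protease, rose by 1.22 and 1.28 on the log2 scale, and the first of these calls was lost without CHT library L574 (1.02, adjusted p = 0.0547). The kinase BMP2K rose in both, from 44.4 to 66.5 CPM to 71.6 to 111 CPM in CHT (log2 fold change 0.69, SE 0.12, adjusted p = 7.8e-05) and 74.6 to 129.9 CPM in IR/CHT (log2 fold change 0.95, SE 0.12, adjusted p = 2.88e-07), with no overlap. TGFBR1, TGFBR2, TGFBR3, BMPR2, ACVR1, SMAD1, SMAD2, SMAD3, SMAD7 and LTBP2 were not called in any aortic comparison.

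**Figure D2:**
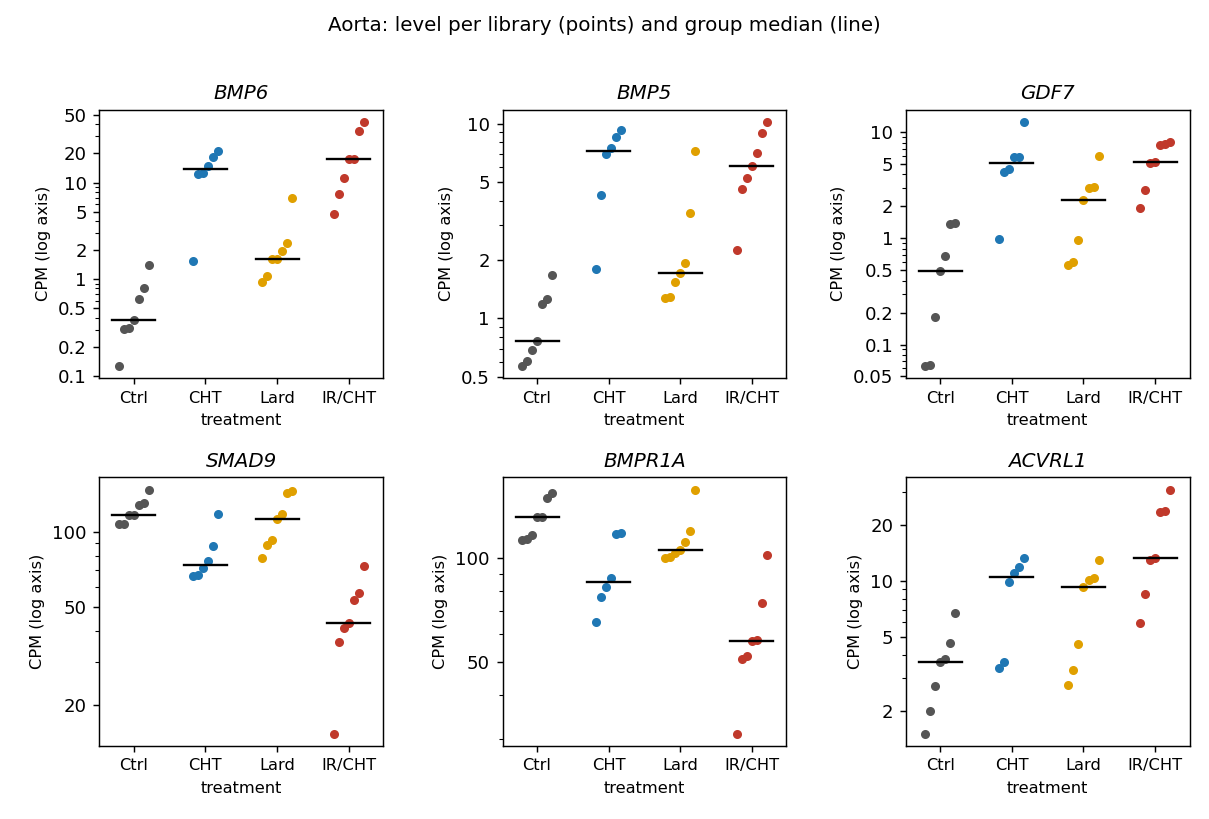
CPM on a log axis in each aorta library by treatment, 1 point per library with a line at the group median, for BMP6, BMP5, GDF7, SMAD9, BMPR1A and ACVRL1. BMP6 has a median of 0.379 CPM in Ctrl and 13.7 CPM in CHT, and all IR/CHT libraries of SMAD9 and BMPR1A lie under the Ctrl libraries.

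With irradiation on the cholesterol diet, 8 of 36 members rose and 9 fell from Ctrl in aorta, a share of 47.2% against 34.3% of all genes (22.2% up and 12.2% down). The median log2 fold change was -0.13 over the members and 0.00 over all genes. IR/CHT against CHT called none of the 36 members in aorta by edgeR (0.596% of all genes). Of these, 14 had an unadjusted p below 0.05, as did 22.8% of all genes, and DESeq2 called SMAD9 and TGFB2. The edgeR count was 6 without IR/CHT library L579 (4.48% of all genes) and 1 without Lard library L563 (0.8%). SMAD9 had 66.2 to 118 CPM (median 73.8) in CHT, above most IR/CHT libraries (log2 fold change -0.80, adjusted p = 0.0622). The falls of SMAD9, BMPR1A, SMAD5, SMAD4 and LTBP1 from Ctrl stood beside the lower smooth muscle and higher macrophage sums given above, whose part in the result was not tested.

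In the irradiated aortic valve the main change was a fall of the co-receptor TGFBR3 and of several ligands. TGFBR3 (ENSOCUG00000016083), which presents TGF-beta to its receptors, had 104 to 158.2 CPM (median 139) in Ctrl, 108 to 137 CPM (median 131) in Lard, 68.0 to 109 CPM (median 95.1) in CHT and 30.6 to 50.6 CPM (median 41.3) in IR/CHT. The IR/CHT libraries lay below all others, and the fall from Ctrl was 3.08-fold (log2 fold change -1.62, SE 0.13, adjusted p = 1.07e-10). BMP3 (ENSOCUG00000000658), known as an antagonist among the BMP ligands, had 18.04 to 38.1 CPM (median 24.9) in Ctrl, 10.4 to 24.7 CPM (median 17.1) in CHT and 0.813 to 5.16 CPM (median 2.53) in IR/CHT (log2 fold change -3.28, SE 0.30, adjusted p = 1.11e-09), a 9.68-fold fall. BMP2, an osteogenic ligand, had 2.46 to 9.002 CPM (median 4.62) and 0.638 to 1.78 CPM (median 0.902) (log2 fold change -2.24, SE 0.32, adjusted p = 1.72e-06). GDF10 had 6.35 to 33.8 CPM (median 19.5) and 0.316 to 1.78 CPM (median 0.790) (log2 fold change -4.37, SE 0.73, adjusted p = 1.97e-05). All 4 genes had separate Ctrl and IR/CHT ranges. TGFB3 had 129 to 181.2 CPM (median 144) and 32.3 to 93.4 CPM (median 69.3) (log2 fold change -1.10, SE 0.19, adjusted p = 2.63e-05), and BMPR1A 34.6 to 66.7 CPM (median 53.3) and 12.5 to 29.3 CPM (median 21.7) (log2 fold change -1.17, SE 0.17, adjusted p = 2.78e-06), also without overlap. In total 2 of 38 members rose and 15 fell, a share of 44.7% where 42.8% of all genes were called (21.1% up and 21.7% down). Only 9 of 38 had a positive log2 fold change, where 47.7% of all genes did, and the median was -0.65 over the members and -0.06 over all genes.

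The members that rose were both type I receptors. ACVRL1 had 0.953 to 7.59 CPM (median 4.11) in Ctrl and 10.8 to 29.1 CPM (median 15.0) in IR/CHT (log2 fold change 2.29, SE 0.49, adjusted p = 0.0004), without overlap, and TGFBR1 had 27.7 to 77.2 CPM (median 54.5) and 62.5 to 112 CPM (median 105) (log2 fold change 0.98, SE 0.21, adjusted p = 0.000437). The endothelial marker sum had medians of 503 CPM in Ctrl and 509 CPM in IR/CHT aortic valve. The IR/CHT group was split, with L178, L236 and L194 at 59.3, 124.1 and 154.7 CPM and the others at 508.8 to 691.2 CPM. Ctrl ranged over 103.4 to 625.8 CPM. Among the ligands that fell were also GDF5 (log2 fold change -2.44), BMP5 (-1.66), BMP4 (-0.89) and GDF11 (-1.28). The receptors ACVR1C (-2.55), ACVR1 (-0.74) and BMPR1B (-1.65) and the transducers SMAD9 (-1.08) and SMAD3 (-0.68) fell as well. SMAD9 had 13.0 to 19.1 CPM in Ctrl and 2.61 to 11.4 CPM in IR/CHT, with separate ranges. TGFBR2, BMPR2, ACVR2A, SMAD1, SMAD2, SMAD4, SMAD5, SMAD7, TGFB2, INHBA and LTBP2 were not called against Ctrl.

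**Figure D3:**
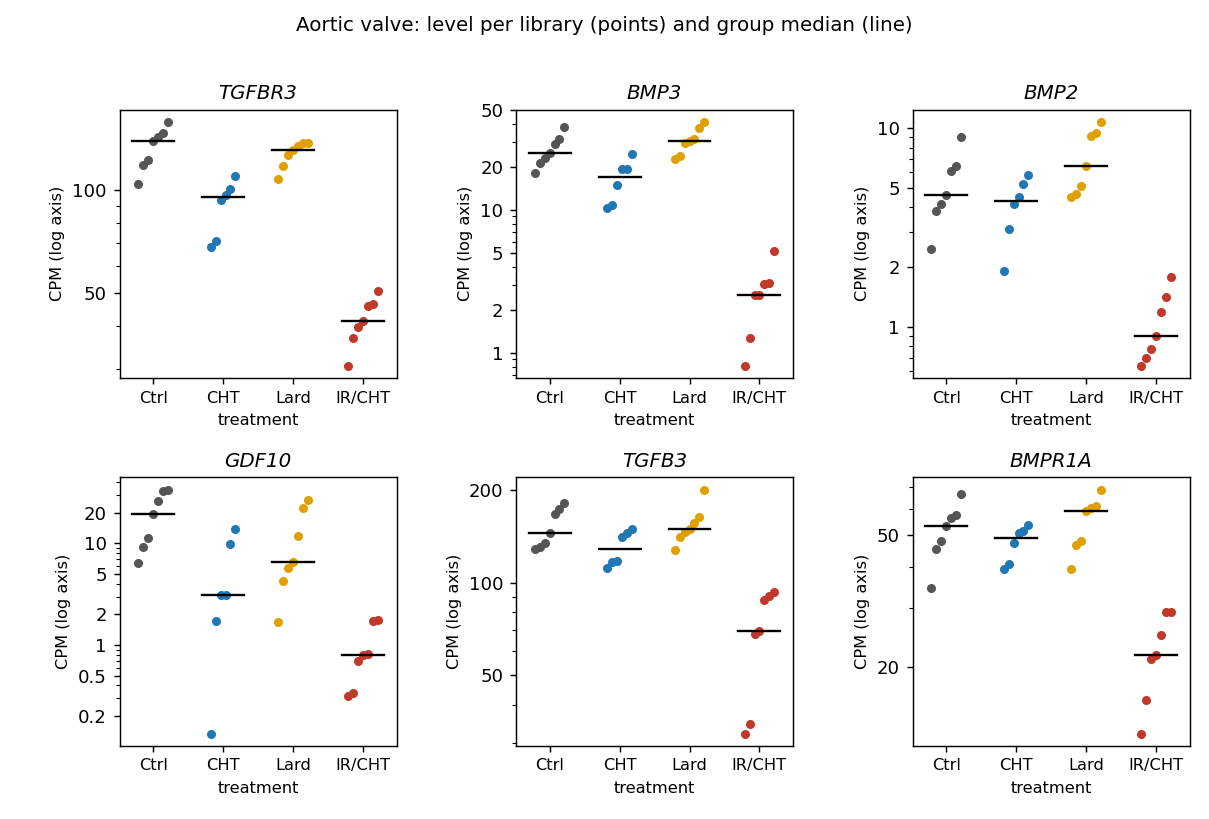
CPM on a log axis in each aortic valve library by treatment, 1 point per library with a line at the group median, for TGFBR3, BMP3, BMP2, GDF10, TGFB3 and BMPR1A. All 7 IR/CHT libraries lie under the Ctrl libraries in each panel, with BMP3 medians of 24.9 CPM in Ctrl and 2.53 CPM in IR/CHT.

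The libraries were made on 2 plates, and all aortic valve CHT libraries were on plate 1, while Ctrl and IR/CHT were split. TGFBR3 had a log2 fold change under IR/CHT of -1.97 within plate 1 and -1.27 within plate 2. For BMP3 it was -4.09 within plate 1 and -2.51 within plate 2, for BMP2 -2.61 within plate 1 and -1.90 within plate 2, for GDF10 -4.75 within plate 1 and -3.96 within plate 2, for TGFB3 -1.58 within plate 1 and -0.63 within plate 2, for BMPR1A -1.39 within plate 1 and -0.91 within plate 2 and for ACVRL1 2.63 within plate 1 and 2.18 within plate 2. These 7 genes passed the threshold within each plate. GDF5, BMP5, TGFBR1, ACVR1, BMP4, GDF11, BMPR1B and SMAD3 did not pass it within plate 2, where 9 members and 21.9% of all genes were called. In plate 2 their log2 fold changes kept the direction of the whole fit, at -1.78 for GDF5, -1.19 for BMP5, 0.90 for TGFBR1, -0.55 for ACVR1, -0.54 for BMP4, -0.87 for GDF11, -2.20 for BMPR1B and -0.41 for SMAD3. BMPR1B missed the threshold in plate 1 as well (-1.32, adjusted p = 0.209). The macrophage marker sum was 219 to 659.6 CPM (median 520.5) in Ctrl, 1631 to 3265 CPM (median 2050.3) in CHT and 5948 to 12159 CPM (median 6844) in IR/CHT aortic valve. Heart muscle markers (11 of 16 found) summed to 200.3 to 13144 CPM (median 861) in Ctrl and 26.7 to 256 CPM (median 55.1) in IR/CHT. No marker found of either list stood at 0 throughout an aortic valve group, and their part in the result was not tested.

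Irradiation was compared directly by setting IR/CHT against CHT in the aortic valve, where 1 of 38 members rose and 13 fell (36.8%, with 19.7% of all genes called, 9.90% up and 9.85% down). BMP3 (log2 fold change -2.59, SE 0.29, adjusted p = 2.93e-06), TGFBR3 (log2 fold change -1.05, SE 0.13, adjusted p = 5.95e-06), BMPR1A (log2 fold change -1.04, SE 0.18, adjusted p = 0.000125), BMP2 (log2 fold change -1.90, SE 0.32, adjusted p = 0.00013), BMP5 (log2 fold change -1.79, SE 0.36, adjusted p = 0.000603), SMAD9 (log2 fold change -1.29, SE 0.26, adjusted p = 0.000771) and TGFB3 (log2 fold change -0.88, SE 0.19, adjusted p = 0.00153) fell with no overlap between the groups. BMP5 had 31.4 to 90.3 CPM in CHT and 2.61 to 28.6 CPM in IR/CHT. Smaller or more variable falls were those of ACVR1 (log2 fold change -0.81), SMAD1 (-0.64), LTBP1 (-0.77), BMPR1B (-1.95), ACVR1C (-1.97) and GDF10 (-2.46). ACVRL1 rose (1.68). With plate 1 libraries alone 11 members were called (17.7% of all genes), and BMPR1B (-1.68, adjusted p = 0.108), ACVR1C (-1.87, adjusted p = 0.114) and ACVRL1 (1.56, adjusted p = 0.0959) did not pass.

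The cholesterol diet alone called 5 of 38 members in aortic valve (13.2%, against 11.9% of all genes, 8.42% up and 3.48% down). DESeq2 called 10 (10.4% of all genes), and leaving out 1 library gave 0 to 8 (8.5% to 16.8% of all genes). SMAD7, the inhibitory SMAD, had 23.1 to 87.4 CPM (median 48.4) in Ctrl and 10.8 to 40.7 CPM (median 21.5) in CHT (log2 fold change -1.21, SE 0.36, adjusted p = 0.0249), and the groups overlapped. SMAD3 (log2 fold change -0.82, SE 0.25, adjusted p = 0.0279), the co-receptor relative TGFBR3L (log2 fold change -2.69, SE 0.86, adjusted p = 0.0374) and GDF5 (log2 fold change -1.40, SE 0.47, adjusted p = 0.0489) fell and TGFBR1 (log2 fold change 0.66, SE 0.22, adjusted p = 0.0442) rose. TGFBR3L had 0.143 to 1.99 CPM in Ctrl and 0 to 0.259 CPM in CHT, where 3 of 6 libraries had 3 counts or fewer. None of the 5 calls stood under every alternative, and none was left with the plate as a covariate (7.3% of all genes, 6.3% up and 1.01% down), where log2 fold changes were -1.03 for SMAD7, -0.72 for SMAD3, -2.03 for TGFBR3L, -1.48 for GDF5 and 0.55 for TGFBR1. Within plate 1 GDF5 passed (-1.86, adjusted p = 0.0337), while TGFBR1 (0.72, adjusted p = 0.0939), SMAD7 (-1.13, adjusted p = 0.175) and SMAD3 (-0.91, adjusted p = 0.11) did not. TGFBR3L was not tested there. In all 2 members were called within plate 1, both lower (5.32% of all genes called). TGFBR3 had a log2 fold change of -0.57 and BMP3 of -0.68 in this comparison, short of the fold or the p of a call.

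In mitral valve, as in aortic valve, IR/CHT was accompanied by lower BMPR1A, BMP3 and TGFBR3. BMPR1A had 52.3 to 64.8 CPM (median 62.0) in Ctrl and 25.8 to 50.1 CPM (median 37.0) in IR/CHT (log2 fold change -0.69, SE 0.12, adjusted p = 9.18e-05). BMP3 had 13.8 to 28.3 CPM (median 19.1) and 2.44 to 11.1 CPM (median 4.85) (log2 fold change -1.73, SE 0.30, adjusted p = 9.25e-05). TGFBR3 had 159.7 to 217 CPM (median 176.1) and 93.5 to 145 CPM (median 111) (log2 fold change -0.68, SE 0.12, adjusted p = 0.000102). The ranges of Ctrl and IR/CHT were separate in these 3 genes and in BMP4 (log2 fold change -0.70, SE 0.16, adjusted p = 0.00173) and LTBP1 (log2 fold change -0.60, SE 0.13, adjusted p = 0.000963). LTBP1 sat at the fold threshold and was lost in 15 of 26 fits that left out a library. ACVRL1 rose (log2 fold change 1.69, SE 0.39, adjusted p = 0.0021), and BMP2 (log2 fold change -1.04, SE 0.32, adjusted p = 0.0171), GDF5 (log2 fold change -0.81, SE 0.29, adjusted p = 0.04), ACVR1C (log2 fold change -0.76, SE 0.28, adjusted p = 0.047) and BMPR1B (log2 fold change -1.55, SE 0.58, adjusted p = 0.047) fell. The last 2 were lost with the plate as a covariate (adjusted p = 0.0597 and 0.051), in both plates alone and in 18 and 20 of 26 fits that left out a library, and GDF5 was lost in both plates alone. That made 1 of 37 members higher and 9 lower (27.0%, against 17.7% of all genes, 11.1% up and 6.65% down).

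Within plates, the log2 fold change of TGFBR3 in mitral valve was -0.70 within plate 1 and -0.61 within plate 2 and that of BMP3 -1.81 within plate 1 and -1.42 within plate 2, and both passed in each plate. They were the 2 calls of this comparison that stood under every alternative, and 6 members were called in plate 1 (12.1% of all genes) and 5 in plate 2 (7.18%). BMPR1A had -0.69 within plate 1 and -0.68 within plate 2, the latter with an adjusted p = 0.0523. ACVRL1 had 1.44 within plate 1 and 2.11 within plate 2, and BMP2 had -1.38 within plate 1 and -0.42 within plate 2. Mitral macrophage markers had a median sum of 439.7 CPM in Ctrl and 3435 CPM in IR/CHT, and their part in the result was not tested. No member was called by edgeR in mitral valve under CHT (5.62% of all genes), under Lard (0%) or between IR/CHT and CHT (0.189%). Unadjusted p was below 0.05 for 5, 0 and 5 of the 37 members (17.5%, 1.65% and 13.1% of all genes), and DESeq2 called 0, 0 and 1, the last being BMP3.

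The pulmonary and tricuspid valves, on the right side of the heart, had no called member in any of their 8 comparisons by edgeR. All-gene shares there were 0.159% (CHT), 0% (Lard), 0.706% (IR/CHT) and 0.0761% (IR/CHT against CHT) in pulmonary valve and 0.163%, 0%, 0.231% and 0% in tricuspid valve. In the same order, 6, 3, 9 and 10 of 37 members had an unadjusted p below 0.05 in pulmonary valve (9.97%, 2.49%, 15.3% and 24.5% of all genes), and 9, 6, 1 and 3 of 36 in tricuspid valve (7.54%, 8.16%, 8.15% and 9% of all genes). DESeq2 called SMAD3 between IR/CHT and CHT of pulmonary valve and nothing else. The tricuspid values moved with Ctrl library L168. Without it the counts were 4, 2, 7 and 9 of 36 members (7.1%, 3.55%, 31.4% and 22.2% of all genes), and the ligand TGFB3 was called under IR/CHT (log2 fold change 0.66, adjusted p = 0.0339, with 6.74% of all genes called), where with L168 it had 0.44. LTBP2 had a log2 fold change of -2.37 under CHT and -2.76 under Lard with L168, and of 0.36 and -0.04 without it. SMAD7, BMP1 and GDF10 likewise had an unadjusted p below 0.05 under CHT and Lard with L168 and not without it. Within plate 1, which does not hold L168, 4 of 37 members had such a p under CHT (13.7% of all genes). TGFBR3 had 84.6 to 139 CPM (median 116) in Ctrl and 123 to 241.03 CPM (median 138) in IR/CHT pulmonary valve (log2 fold change 0.42, SE 0.13, adjusted p = 0.125), and medians of 203 and 251.4 CPM in tricuspid valve (log2 fold change 0.23, SE 0.12, adjusted p = 0.661). BMP3 had 27.4 to 41.4 CPM and 17.8 to 38.7 CPM in pulmonary valve (log2 fold change -0.11, SE 0.19, adjusted p = 0.819), and 4.60 to 15.2 CPM and 8.12 to 14.2 CPM in tricuspid valve (log2 fold change 0.05, SE 0.30, adjusted p = 0.998). The Ctrl and IR/CHT ranges overlapped in all 4 cases. Without IR/CHT library L176 or L275 no member was called in pulmonary valve either, and the log2 fold change under IR/CHT was 0.28 and 0.44 for TGFBR3 and -0.08 and -0.18 for BMP3. Median macrophage sums were 709.7 CPM in Ctrl and 871 CPM in IR/CHT pulmonary valve, and 636 and 896 CPM in tricuspid valve.

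**Figure D4:**
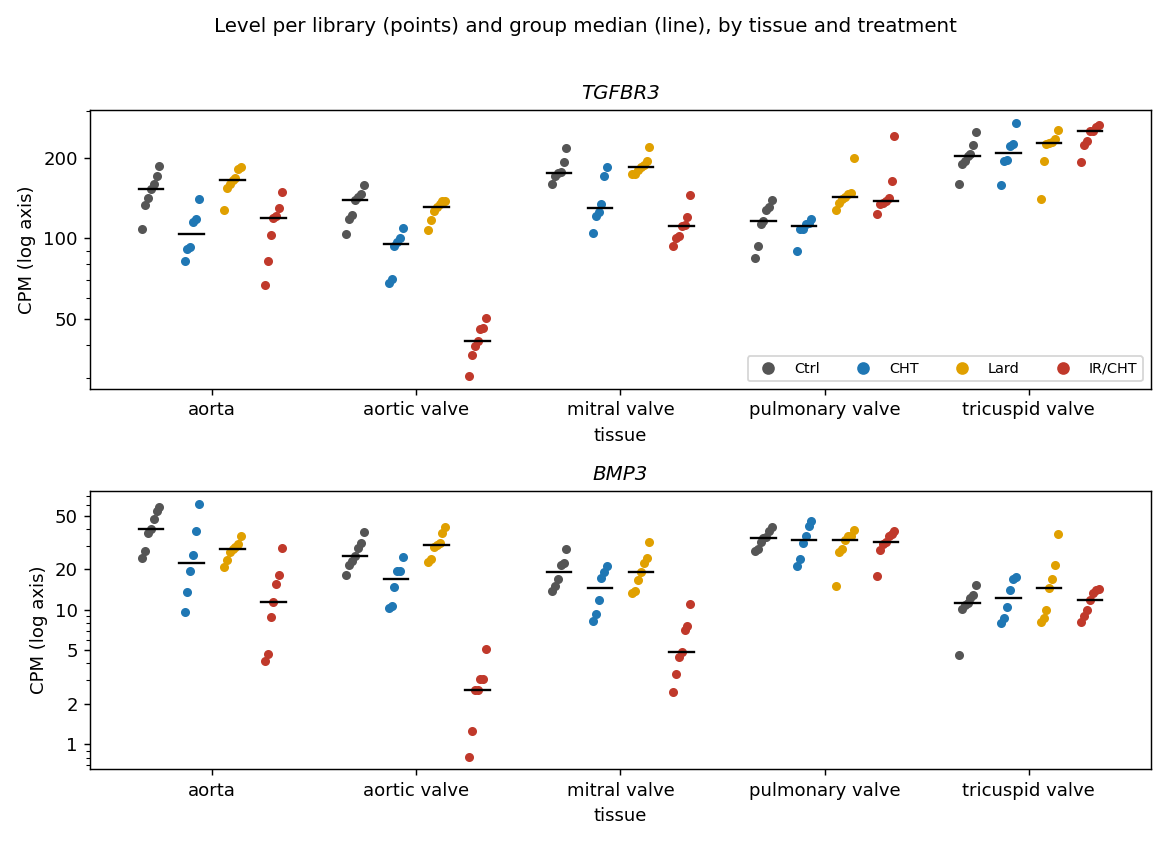
TGFBR3 and BMP3 in CPM on a log axis in every library, by tissue and treatment, 1 point per library with a line at the group median. The IR/CHT medians of the aortic valve, 41.3 CPM for TGFBR3 and 2.53 CPM for BMP3, are the lowest among the 20 groups.

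Differences between tissues in the response were tested as interactions, called at an adjusted p below 0.05. The response to CHT differed between aortic valve and aorta for 4 of 40 members (5.3% of all genes, 1.05% up and 4.25% down), namely BMP6 (log2 interaction -4.89, SE 0.65, adjusted p = 2.68e-06), GDF7 (-4.63, SE 0.86, adjusted p = 0.000528), BMP5 (-2.65, SE 0.56, adjusted p = 0.00283) and INHBA (-1.43, SE 0.41, adjusted p = 0.0282). These ligands rose in aorta, while in aortic valve their log2 fold changes were -0.24, -1.31, 0.13 and -0.53. Blocking by rabbit added SMAD3, SMAD7 and TGFBR1, making 7 (replicate block, 6.86% of all genes). No interaction fit held the plate, although all CHT aortic valve libraries were on plate 1 and all aorta libraries on plate 2. The CHT calls of SMAD3, SMAD7 and TGFBR1 in aortic valve were lost with the plate as a covariate. Under IR/CHT 20 of 40 members differed (32.8% of all genes, 11.1% up and 21.7% down), 19 of them lower in the valve relative to the aorta. Among those lower, INHBB and GDF5 had few counts in aorta, as given in a later section. The median interaction was -0.95 over the members and -0.29 over all genes. The smallest p belonged to BMP6 (-5.75, SE 0.63, adjusted p = 1.7e-09), BMP5 (-4.55, SE 0.55, adjusted p = 1.86e-08), TGFBR3 (-1.37, SE 0.20, adjusted p = 8.92e-07), TGFB3 (-1.20, SE 0.24, adjusted p = 0.000133), GDF10 (-4.01, SE 0.81, adjusted p = 0.000161) and GDF7 (-3.83, SE 0.82, adjusted p = 0.000316). BMP5 thus rose in IR/CHT aorta and fell in IR/CHT aortic valve. Without aortic valve library L178 the count was 21 (35.8% of all genes), with ACVR1C lost (adjusted p = 0.0607) and SMAD4 and LTBP2 added.

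Between the valves of the outflow tracts, the response to IR/CHT differed for 21 of 38 members (40.2% of all genes, 16.8% up and 23.3% down), 3 higher and 18 lower in aortic than in pulmonary valve, with a median of -0.70 over the members and -0.19 over all genes. TGFBR3 (-2.11, SE 0.19, adjusted p = 7.53e-13), BMP3 (-3.23, SE 0.34, adjusted p = 7.1e-11), BMPR1A (-1.22, SE 0.20, adjusted p = 2.37e-06), GDF10 (-5.18, SE 0.88, adjusted p = 5.19e-06), BMP2 (-2.16, SE 0.39, adjusted p = 1.21e-05) and TGFB3 (-1.28, SE 0.24, adjusted p = 2.68e-05) led by p. The count was 21 without pulmonary valve library L176 (40% of all genes), 19 without L275 (36.1%), when BMP4 (adjusted p = 0.0522) and LTBP2 (log2 interaction -0.92, adjusted p = 0.211) were no longer called, and 20 without aortic valve library L178 (41.4%), when ACVRL1 was not (1.51, adjusted p = 0.0692). Mitral and aortic valve differed for 9 of 38 members (15.7% of all genes, 8.41% up and 7.26% down), 8 of which were higher in mitral relative to aortic valve, among them TGFBR3 (0.98, SE 0.17, adjusted p = 0.000196), GDF10 (3.40, SE 0.82, adjusted p = 0.00346) and BMP3 (1.59, SE 0.41, adjusted p = 0.006). With the rabbit as a block this count was 16 (32.9% of all genes), and without L178 it was again 9 (16.2%), with BMP2 lost (adjusted p = 0.0685) and TGFBR1 added. Mitral and tricuspid valve differed for 5 of 39 members (9.56% of all genes, 6.32% up and 3.23% down), each lower in mitral valve: TGFBR3 (-0.88, SE 0.17, adjusted p = 0.000271), LTBP1 (-0.79, SE 0.18, adjusted p = 0.00216), BMP3 (-1.76, SE 0.43, adjusted p = 0.00387), BMPR1A (-0.59, SE 0.16, adjusted p = 0.00886) and TGFB3 (-0.71, SE 0.23, adjusted p = 0.0357). The count was 11 with the block (18% of all genes) and 6 without L168 (12.7%). The response to CHT gave 0 called members by edgeR between mitral and aortic (0% of all genes), aortic and pulmonary (4.39%), and mitral and tricuspid valve (2.23%), with an unadjusted p below 0.05 for 4, 5 and 6 members (11.2%, 17.8% and 13.4% of all genes). With the rabbit as a block SMAD7 was called between mitral and aortic valve (1.03, adjusted p = 0.0222), where 13 members had an unadjusted p below 0.05 and 4.98% of all genes were called, and TGFBR2 between aortic and pulmonary valve (0.49, adjusted p = 0.0317, with 5.2% of all genes called).

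Among genes known to be induced by TGF-beta more rose than fell from Ctrl under CHT and IR/CHT in aorta and aortic valve. None was called under Lard in aortic valve (0.234% of all genes) or between IR/CHT and CHT in aorta (0.596%). The macrophage sums given above moved in the same groups, and their part in the result was not tested. Of a list of 25 such genes, written with earlier results of these data known, 17 were tested. The genes of this list and of those below were tested in the main fit alone, without the alternatives. All CHT aortic and mitral valve libraries were on plate 1, while Ctrl was split. The part of the plate in the CHT calls of these valves was not tested. In aorta 7 rose and 1 fell under CHT and 10 rose and 1 fell under IR/CHT, with list medians of 0.91 and 0.93 (log2) where all genes had -0.04 and 0.00. Of all genes, 14.2% rose and 5.18% fell under CHT and 22.2% rose and 12.2% fell under IR/CHT. TIMP1, a protease inhibitor of the matrix, went from 86.9 ± 15.5 to 307 ± 144 CPM (log2 fold change 1.85, adjusted p = 2.73e-05) in CHT aorta, and ADAM12, a metalloprotease, from 1.02 ± 0.620 to 11.4 ± 7.91 CPM (log2 fold change 3.50, adjusted p = 0.000164). FN1 (fibronectin) rose by 1.79 in CHT, POSTN (periostin) by 1.90 and TIMP1 by 1.98 in IR/CHT on the log2 scale, while the oxidase NOX4 fell (-1.08). In Lard aorta ADAM12 (2.95) and POSTN (1.17) rose.

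The same list had 9 genes up and 2 down in IR/CHT aortic valve (median 0.72, all genes -0.06), 5 up and 1 down in CHT, and 5 up and 1 down between IR/CHT and CHT. The all-gene shares were 21.1% up and 21.7% down in IR/CHT, 8.42% and 3.48% in CHT, and 9.90% and 9.85% between IR/CHT and CHT. In IR/CHT TIMP1 rose there from 71.2 ± 21.2 to 497 ± 97.9 CPM (log2 fold change 2.87, adjusted p = 1.61e-11), and TGFBI, a matrix protein, from 446 ± 44.2 to 827 ± 119 CPM (log2 fold change 0.95, adjusted p = 1.22e-07). CDKN2B, a cell cycle inhibitor, rose in CHT (2.14), as did TIMP1 (0.87). Relative to CHT, the rise with irradiation was 2.00 for TIMP1 and 3.58 for ANGPTL4, a lipase inhibitor, on the log2 scale. Mitral valve had 3 up and 2 down under IR/CHT (11.1% and 6.65% of all genes), including ADAM12 (1.45) and NOX4 (-0.97), and ADAM12 up under CHT (1.54).

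BMP-induced genes moved in both directions. Of 14 on the list, 11 were tested in aorta and 9 in aortic and mitral valve. In Lard aorta 3 of the 11 rose and 0 fell, where 2.61% of all genes were called. RUNX2, a bone transcription factor, went from 0.278 ± 0.307 to 4.06 ± 5.85 CPM (log2 fold change 3.85, adjusted p = 0.0119) and ALPL, alkaline phosphatase, from 0.458 ± 0.377 to 4.73 ± 7.90 CPM (log2 fold change 3.37, adjusted p = 0.0311). SP7, a later bone factor, was also called, and stood at 0 in all Ctrl libraries and 1.77 ± 3.00 CPM in Lard. In each of these genes 1 Lard library was far above the rest, at 16.8 CPM for RUNX2 (the next had 4.30 and the median was 2.37), 22.4 CPM for ALPL (next 4.11, median 2.31) and 8.38 CPM for SP7 (next 1.91, median 0.621), and the lowest Lard library lay within the Ctrl range. RUNX2 (2.92) and ALPL (2.91) rose in CHT as well, and HEY1 fell (-0.70). Under IR/CHT 4 of 11 rose and 3 fell in aorta (22.2% and 12.2% of all genes), the latter being HEY1 (-1.36), HEY2 (-1.09) and ID2 (-0.94). In IR/CHT aortic valve 2 of 9 rose and 5 fell, where 21.1% and 21.7% of all genes did (median -1.16, all genes -0.06). ID1, a direct BMP target, fell there from 172.01 ± 92.4 to 74.1 ± 30.2 CPM (log2 fold change -1.16, adjusted p = 0.00325), and ID3 from 110.0 ± 46.4 to 37.3 ± 16.8 CPM (log2 fold change -1.51, adjusted p = 9.23e-05). HEY1 also fell (-1.74) and ID2 rose, from 12.7 ± 5.15 to 43.1 ± 12.0 CPM (log2 fold change 1.82, adjusted p = 1.36e-06). Against CHT, HEY1 (-1.43) and HEY2 (-1.12) fell and ID2 rose (1.13). ID1 (-1.004) and ATOH8 (-2.24), a BMP target of endothelium, fell under CHT, where the part of the plate was not tested. In mitral valve ID2 (1.04) and RUNX2 (1.397) rose under IR/CHT. ID1 and ID3 were called neither in aorta nor in mitral valve.

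Secreted inhibitors of the family were tested for 17 of 24 genes in aorta and 16 in aortic and mitral valve. CHRDL2, a chordin-like BMP antagonist, rose in CHT aorta from 1.07 ± 0.539 to 36.0 ± 37.2 CPM (log2 fold change 5.10, adjusted p = 1.4e-05), in Lard by 3.44 and in IR/CHT by 4.27 on the log2 scale. BMPER, a BMP modulator, rose in CHT (1.37) and Lard (1.76), and SOST fell in CHT (-1.44). In all 3 rose and 1 fell under CHT (14.2% and 5.18% of all genes), and 6 rose and 3 fell under IR/CHT (22.2% and 12.2% of all genes), including TWSG1 (-0.81). Aortic valve had 1 of 16 up and 7 down under IR/CHT, where 21.1% of all genes rose and 21.7% fell (median -0.71, all genes -0.06). DCN (decorin), a matrix proteoglycan that binds TGF-beta, fell there from 1571 ± 963 to 388 ± 174.1 CPM (log2 fold change -1.96, adjusted p = 0.000233). FST (follistatin), which binds activins, fell from 78.6 ± 40.3 to 20.9 ± 8.41 CPM (log2 fold change -1.84, adjusted p = 0.000812). SOST fell (-2.67) and SOSTDC1 rose (2.51). Under CHT SOST (-1.80) and FST (-1.45) fell, with the part of the plate again not tested. Against CHT, DCN (-1.61) and CHRDL1 (-1.11) fell and SOSTDC1 rose (1.85). In IR/CHT mitral valve 4 fell (6.65% of all genes), among them DCN (-1.32), FST (-1.32) and TWSG1 (-0.63). FST was the called gene of these lists in tricuspid valve (-1.56 under IR/CHT). The lists were not run without L168, where 6.74% of all genes were called in this comparison instead of 0.231%. NOG (noggin) was not called in any tissue, and GREM1 was not called in aorta and was not tested in aortic or mitral valve.

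Proteins that store or free latent TGF-beta were tested for 12 of 17 genes in aorta. FBN2 (fibrillin-2), a microfibril protein, rose in CHT aorta from 2.83 ± 1.26 to 20.2 ± 6.10 CPM (log2 fold change 2.86, adjusted p = 1.68e-07) and THBS1 (thrombospondin-1), which can release active TGF-beta, from 34.7 ± 18.2 to 327 ± 345 CPM (log2 fold change 3.27, adjusted p = 8.73e-05). FURIN, which cleaves the precursors, rose as well (1.46). In IR/CHT aorta 4 rose and 5 fell (22.2% and 12.2% of all genes), with FBN2 up (3.47) and the integrins ITGB1 (-1.07) and ITGB8 (-0.90) down. Against CHT, the protease PCSK5 (-0.76) and FBN1 (-0.60) fell. In IR/CHT aortic valve 3 of 13 rose and 4 fell (21.1% and 21.7% of all genes). ITGB8, an integrin subunit that activates TGF-beta, fell there from 90.03 ± 6.46 to 24.0 ± 6.31 CPM (log2 fold change -1.85, adjusted p = 1.03e-10), and FBN2 from 237.98 ± 69.6 to 49.7 ± 24.0 CPM (log2 fold change -2.20, adjusted p = 3.94e-07), the opposite direction to its change in aorta. PCSK5 fell too (-0.62). Falls of ITGB8 were also called under CHT (-0.72), with FBN2 (-0.91) and a rise of ITGB1 (0.64), and against CHT (-1.13, with FBN2 at -1.30). In mitral valve ITGB8 fell under CHT (-0.61) and IR/CHT (-0.91), PCSK5 (-0.66) and ASPN (-1.20) under IR/CHT, and THBS1 between IR/CHT and CHT (-0.87).

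Other ligands and co-receptors were tested for 7 of 13 genes in aorta and aortic valve and 8 in mitral valve. In aorta 2 rose and 2 fell under CHT (14.2% and 5.18% of all genes) and 3 rose under IR/CHT (22.2%), in aortic valve 1 rose and 1 fell under CHT (8.42% and 3.48%) and 1 rose and 2 fell under IR/CHT (21.1% and 21.7%), and in mitral valve 1 rose under CHT (5.62% called in either direction) and 2 under IR/CHT (11.1% higher). NRROS, which anchors latent TGF-beta on myeloid cells, rose from 0.647 ± 0.404 to 8.20 ± 3.41 CPM (log2 fold change 3.67, adjusted p = 1.26e-06) in CHT aorta and from 2.81 ± 0.915 to 38.7 ± 7.67 CPM (log2 fold change 3.84, adjusted p = 1.28e-09) in IR/CHT aortic valve. Its log2 fold change was 4.65 in IR/CHT and 1.68 in Lard aorta, 1.83 in CHT aortic valve, and 2.08 and 2.96 in CHT and IR/CHT mitral valve, beside the macrophage sums given above. ENG (endoglin), an endothelial co-receptor, rose in CHT aorta from 7.86 ± 4.90 to 25.3 ± 21.5 CPM (log2 fold change 1.72, adjusted p = 0.0239) and in IR/CHT aorta by 3.00 on the log2 scale, and was not called in aortic valve (159.97 ± 107 against 87.6 ± 64.7 CPM, adjusted p = 0.269 under IR/CHT). INHA fell in CHT aorta (-1.10) and in CHT (-1.27) and IR/CHT aortic valve (-1.58), where RGMA fell too (-2.55). LRRC32, which displays latent TGF-beta at the cell surface, rose under IR/CHT in aorta (2.76) and mitral valve (1.38). Of 17 intracellular regulators tested, 2 rose and 1 fell in CHT aorta (14.2% and 5.18% of all genes), 2 rose and 2 fell in IR/CHT aorta (22.2% and 12.2%), 2 rose and 1 fell in IR/CHT aortic valve (21.1% and 21.7%) and 2 fell in IR/CHT mitral valve (6.65%). The SMAD anchor ZFYVE9 fell in CHT (-0.62) and IR/CHT aorta (-0.91), in IR/CHT aortic valve (-1.50, and -1.39 against CHT) and in mitral valve (-0.83). The co-repressor TGIF1 rose in CHT (0.74) and IR/CHT aorta (0.94) and in IR/CHT aortic valve (0.69), SKIL fell in IR/CHT aorta (-0.77) and mitral valve (-0.64), NEDD4L rose in CHT aorta (0.68) and USP15 in IR/CHT aortic valve (0.77).

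Apart from the treatments, the family shared 1 pattern of variation between libraries of the same group. After each library was set against the mean of its group, the first axis of the 32 members used held 46.9% of their variance over the 134 libraries. LTBP2 (loading 0.44), GDF10, BMP1, ACVRL1, SMAD7, ACVR1B and SMAD3 lay at one end, and SMAD5 (loading -0.16), ACVR1C, BMP5, BMPR2, ACVR2A, SMAD4 and ACVR1 at the other. Across libraries LTBP2 had r = 0.844 with BMP1, 0.868 with SMAD7 and -0.707 with SMAD5. SMAD5 had r = 0.925 with SMAD4 and 0.901 with BMPR2. TGFBR3 (r = -0.125 with LTBP2), BMP3 (-0.081), BMP2 (-0.144) and INHBA (-0.036) did not follow LTBP2. The libraries share plates and rabbits, so these values are a description.

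This pattern was not particular to the pathway. The first axis of all 10337 genes over 5 CPM held 34.3% of their variance and had r = 0.966 with that of the members. Scores had r = 0.721 with the fibroblast and valve interstitial marker sum (9 of 10 found), 0.463 with T cell markers, -0.450 with endothelial, -0.011 with macrophage, -0.038 with smooth muscle and -0.084 with heart muscle markers, and -0.080 with total read pairs. Ctrl tricuspid valve library L168 had the highest score, 0.349, followed by IR/CHT tricuspid valve library L197 (0.227) and IR/CHT pulmonary valve library L275 (0.207), and Ctrl aortic valve library L277 the lowest (-0.147).

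**Figure D5:**
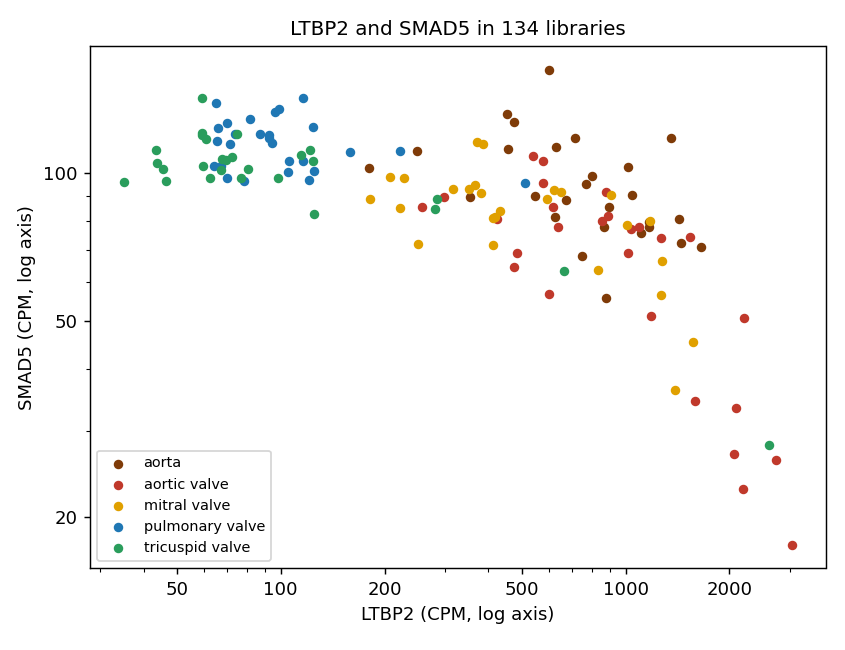
LTBP2 against SMAD5 in CPM, both axes logarithmic, with 1 point for each of the 134 libraries coloured by tissue. Libraries with more LTBP2 tend to have less SMAD5 (r = -0.707 with group means removed), and Ctrl tricuspid valve library L168 lies far from its group, at 2607 CPM of LTBP2 and 28.1 CPM of SMAD5.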

How the data were processed

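RNA of 134 dissected tissue samples was sequenced as stranded total RNA libraries on 2 plates. The authors trimmed the read pairs (clip_R2 = 3, nextseq-trim = 10), mapped them to OryCun2.0 with the nf-core/rnaseq pipeline and counted them on Ensembl release 99 genes, after base calling with bcl2fastq 2.20 per the submitters' processing notes. The deposited values are raw counts of read pairs per gene, without normalization or pooling. Each table holds 29587 genes. All aorta libraries were on plate 2.

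Groups, plates and rabbits were taken from the sample labels and column names. In comparisons of treatments within a tissue, where each rabbit gave 1 library, the p-values measure the spread between rabbits. The main fits of Ctrl tissues and of interactions took libraries of 1 rabbit as independent. Their p-values measure the spread between libraries. Libraries of 1 rabbit deviated together: with group means removed, the same-rabbit correlation of aortic and mitral valve had a median of 0.604 (26 of 26 pairs over 0.1), and that of other rabbits -0.029. In the other pairs of tissues the same-rabbit median was 0.235 to 0.390, and some pairs were below 0.1.

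In R 4.3.3 with edgeR 4.0.16, each tissue's libraries of all 4 treatments were filtered (filterByExpr), scaled by TMM and fitted with 1 quasi-likelihood model without covariates. Ctrl tissues were compared in 1 fit of all Ctrl libraries, and interactions in fits of both tissues. Calls required over 1.5-fold change with an adjusted p-value below 0.05, and interactions the p-value alone. The SE is the log2 fold change over the square root of its F statistic. The step was tested on simulated data. DESeq2 1.42.0, its size factors, no low-count filter, fits of 2 groups, the plate as covariate, single plates, the rabbit as replicate block and leaving out each library were the alternatives. The prior count of log2 CPM values, which the fits did not use, was 2, and the floor was 3 counts.

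The members and the gene lists were chosen with earlier results of these data known. Named are the members called in a treatment comparison (up to 12 by p with full statistics), up to 6 by p in each comparison of Ctrl tissues or interaction, a fixed set whether called or not, and of each pathway list the 3 called genes with the smallest p in aorta, aortic and mitral valve with ID1, ID3, NOG, GREM1, FST and ENG. Some genes that this rule names are not reported here. The RefSeq gene table used for symbols is of another assembly, so positions and sequences are not given here.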

Additional observations from a re-analysis of the deposited data

Results flagged for a closer look

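Dixon's criterion was applied to the members called in a treatment comparison, in the 4 treatment groups of that tissue (204 groups), and to those called between Ctrl tissues, in the Ctrl groups of both tissues (64 more groups). In 11 of these groups of 6 or 7 libraries, 1 library lay far from the others, which chance alone gives in about 1 group in 20. CHT aorta library L573 had 1.54 CPM of BMP6, where the other 5 ranged from 12.2 to 21.2 CPM. BMPR1A stood at 157.4 CPM in Lard aorta library L576 (the others 99.96 to 119.7 CPM) and at 52.3 CPM in Ctrl mitral valve library L262 (the others 61.0 to 64.8 CPM). GDF5 had 0.784 CPM in IR/CHT aortic valve library L273, where the highest of the others had 0.369 CPM. Ctrl tricuspid valve library L168 was the extreme one for LTBP2 (2607 CPM, the others 43.4 to 114.7 CPM), BMP1 (142.3 CPM, the next 25.4 CPM) and BMP5 (70.68 CPM, the next 126 CPM). In the same group BMP3 stood at 4.602 CPM in L243 (the next 10.2 CPM) and SMAD9 at 7.019 CPM in L159 (the next 10.7 CPM). Ctrl aorta library L568 had 1.517 CPM of SMAD3 (the next 4.32 CPM), and Ctrl pulmonary valve library L153 had 0.1355 CPM of ACVRL1 (the next 0.832 CPM).

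The other results taken up here are responses that differed between tissues by the interaction test, each given as the log2 fold change from Ctrl in the first tissue less that in the second, with an adjusted p below 0.05 (edgeR). For CHT in aortic valve against aorta these were BMP6 (-4.89), GDF7 (-4.63), BMP5 (-2.65) and INHBA (-1.43). IR/CHT in aortic valve against aorta gave BMP6 (-5.75), BMP5 (-4.55), TGFBR3 (-1.37), TGFB3 (-1.20), GDF10 (-4.01), GDF7 (-3.83), BMP4 (-1.40), BMP2 (-2.09), TGFBR1 (0.979), SMAD3 (-1.47), BMP3 (-1.80), GDF5 (-3.60), SMAD7 (-1.70), BMP2K (-0.668), GDF6 (-2.50), INHBB (-4.18), INHBA (-1.13), BMP1 (-1.59), ACVR1B (-1.38) and ACVR1C (-1.92). INHBB did not pass the filter in either tissue alone and had at most 1 count in each Ctrl aorta library. GDF5 had at most 6 counts in any aorta library, so both values rest on few counts. Against the pulmonary valve, the aortic valve differed under IR/CHT for TGFBR3 (-2.11), BMP3 (-3.23), BMPR1A (-1.22), GDF10 (-5.18), BMP2 (-2.16), TGFB3 (-1.28), ACVR1C (-2.59), LTBP1 (-0.875), SMAD3 (-1.33), SMAD9 (-1.24), BMP5 (-1.57), GDF5 (-2.46), TGFBR2 (0.519), TGFBR1 (0.756), SMAD7 (-1.44), GDF11 (-1.34), BMPR1B (-1.91), BMP4 (-0.758), ACVRL1 (1.69), LTBP2 (-1.58) and SMAD1 (-0.461). The mitral less the aortic valve gave TGFBR3 (0.984), GDF10 (3.40), BMP3 (1.59), TGFB3 (0.855), TGFBR2 (-0.553), GDF5 (1.68), ACVR1C (1.86), SMAD7 (1.37) and BMP2 (1.25). The mitral less the tricuspid valve gave TGFBR3 (-0.882), LTBP1 (-0.789), BMP3 (-1.76), BMPR1A (-0.59) and TGFB3 (-0.713). ACVR1B and ACVR1C in the comparison with aorta and LTBP2 in that with pulmonary valve were not called with the rabbit as a block, under which LTBP2 and BMP2K were called in the same comparisons respectively.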

How the results depend on the processing

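Calls in aorta and those for IR/CHT in aortic valve were kept in part. All aorta libraries were on plate 2, so the aorta had no plate alternatives. Every alternative that tested the gene kept 6 of 11 calls in CHT aorta (BMP6, BMP5, BMP2K, GDF7, INHBA and GDF10) and 13 of 17 in IR/CHT aorta. The 13 include all 8 rises, but the IR/CHT aorta fit of 2 groups tested 35 members and had 7 rises. A kept gene was thus not tested in it. Kept in aortic valve were 9 of 17 in IR/CHT (TGFBR3, BMP3, BMP2, BMPR1A, GDF10, TGFB3, ACVRL1, ACVR1C and SMAD9), 10 of 14 for IR/CHT against CHT and 0 of 5 in CHT. Mitral valve kept 2 of 10 in IR/CHT (BMP3 and TGFBR3). With DESeq2 the count of called members was 3 for Lard and 2 for IR/CHT against CHT in aorta (shares of all genes 2.71% and 2.05%), 10 for CHT in aortic valve (10.4%), and 1 for IR/CHT against CHT in mitral (0.548%) and in pulmonary valve (1.85%). In CHT aortic valve it was 1 without the filter (6.44% of all genes), 0 in a fit of 2 groups (8.06%), 0 with the plate as covariate (7.3%) and 2 on plate 1 (5.32%). It was 9 on plate 2 for IR/CHT aortic valve (21.9%). For IR/CHT mitral valve it was 6 without the filter (10.4%), 6 in 2 groups (16.9%), 6 on plate 1 (12.1%) and 5 on plate 2 (7.18%). Without the filter Ctrl pulmonary against tricuspid valve gave 7 (5.98%). With the replicate block (rabbit) counts were 6 for Ctrl mitral against tricuspid valve (10.8% of all genes), 7 for the CHT response of aortic valve against aorta (6.86%), 1 and 16 for the CHT and IR/CHT responses of mitral against aortic valve (4.98% and 32.9%), 1 for the CHT response of aortic against pulmonary valve (5.2%) and 11 for the IR/CHT response of mitral against tricuspid valve (18%). The block ended 7 single-gene calls (ACVR1C between Ctrl aortic valve and aorta, LTBP2, ACVRL1 and ACVR1B between Ctrl pulmonary and tricuspid valve, and under IR/CHT the interactions of ACVR1B and ACVR1C with aorta and of LTBP2 with pulmonary valve) and kept the other 114 calls. It added SMAD1 and SMAD7 between Ctrl aortic and mitral valve, GDF7 between pulmonary and tricuspid valve, and the genes behind the higher counts above, as well as LTBP2 and BMP2K for the IR/CHT responses of aortic valve against aorta and pulmonary valve. Leaving out library L168, an alternative chosen after seeing the data, gave 14 for Ctrl mitral against tricuspid (25.3% of all genes) and 7 for pulmonary against tricuspid valve (8.72%), where LTBP2 turned to 0.35. Leaving out IR/CHT pulmonary valve L176 or L275 or aortic valve L178, also chosen after seeing the data, gave 19 to 21 for the IR/CHT response of aortic against pulmonary valve, and L178 alone 21 against aorta and 9 for mitral against aortic valve.

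Leaving out 1 library at a time gave 7 to 12 calls in CHT aorta (7 without CHT L574, all genes 15.5% to 21.2%), 15 to 19 in IR/CHT aorta (29.9% to 37.6%), 0 to 2 in Lard aorta (2 without Lard L563 or CHT L573, all genes 1.46% to 3.82%) and 0 to 6 for IR/CHT against CHT in aorta (6 without IR/CHT L579, all genes 0.0134% to 4.48%). Aortic valve gave 0 to 8 in CHT (0 without Ctrl L150 or L166 or CHT L169 or L186, 1 without Ctrl L261, 2 without CHT L228 or L265, 8 without CHT L151 or Ctrl L277, all genes 8.5% to 16.8%), 16 to 20 in IR/CHT (39.1% to 44.9%) and 13 to 15 for IR/CHT against CHT (16.4% to 21.2%). Mitral valve gave 6 to 12 in IR/CHT (6 without CHT L187 or Ctrl L199 or L156, all genes 15.1% to 20.7%), 0 to 1 in CHT (1 without Ctrl L183 or L262, all genes 4.12% to 7.09%) and 0 to 1 for IR/CHT against CHT (1 without IR/CHT L175 or CHT L157 or L266, all genes 0.0387% to 1.22%), and tricuspid valve 0 to 1 in IR/CHT (TGFB3 without Ctrl L168, all genes 0.184% to 6.74%). The cause was not tested for any of these. Low counts limit GDF6, GDF7, BMP2, BMP6 in Ctrl aorta and TGFBR3L, with 14.5 to 16.5 read pairs to 1 CPM in Ctrl aorta.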
